A study of Mus musculus with 16 samples.

Results

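Trans contacts on chromosome 7 are the sites of that chromosome that 4C-seq listed as ligation partners of a promoter lying on another chromosome. The members were chosen by position, as every site listed on chromosome 7 in any of 16 libraries, and they numbered 15924 of 208518 trans sites and of 327988 sites listed in all. At the Pole/Pxmp2 promoter of chromosome 5 they were 4504 of 48978 trans sites. At the Cdca3/Usp5 promoter of chromosome 6 they were 11420 of 159540. Chromosome 7 itself was selected on its measured share of trans sites, so the level of that share, its rank and its pattern along the chromosome are given as description, with no test. Tests were made between genotypes and, for windows, between viewpoints; those on the share use the same values that chose the chromosome.

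The study applied circular chromosome conformation capture with sequencing to mouse embryonic fibroblasts, primary cells grown from E13.5 embryos and harvested while proliferating at passage 4. Its 4 groups combined 2 viewpoints (the promoter from which contacts are read) with 2 genotypes, and each group had 4 libraries. Cells were either Rb1+/+, with an intact gene for the retinoblastoma protein pRb, or Rb1L/L, homozygous for the L allele, which from other work is known to change the cleft that binds proteins with an LXCXE motif. Libraries carry the numbers of 4 pairs of cultures, and these recur at the other viewpoint, so 8 cultures were assumed to have given the 16 libraries, with embryos of either genotype as their only stated source. The labels name no treatment and no other allele in any group. Pole makes the catalytic subunit of a replicative DNA polymerase, and its partner Pxmp2 makes a membrane protein of peroxisomes. Cdca3 acts in cell division, and its partner Usp5 removes ubiquitin chains. The series asks, by its title, how condensin II, which compacts chromosomes, is brought to such paired promoters by pRb, so the genotype comparison asks whether their contacts differ in Rb1L/L cells.

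In 4C-seq, chromatin is crosslinked, cut and ligated, and fragments joined to the viewpoint are amplified by inverse PCR and sequenced. Each chromosome keeps largely to its own territory, so a promoter meets other chromosomes much less often than its own, and the trans contacts of an active promoter usually gather in gene-rich, transcribed stretches. Mouse chromosome 7 is rich in genes and also carries large clusters of olfactory and vomeronasal receptor genes, families that are mostly silent outside sensory neurons. In the GRCm38.p6 RefSeq annotation it held 2030 protein-coding genes, the most among the chromosomes that were trans to either viewpoint. By symbol, 239 of the 1110 olfactory receptor genes (21.5%) and 178 of the 353 vomeronasal receptor genes (50.4%) lay on it. The listed sites are given in the older mm9 build, so positions below carry no gene names.

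Of the 4 genes at the viewpoints, the RefSeq promoter table held the promoter of Cdca3. Its sequence, at chr6:124829926-124830225 on the plus strand of GRCm38.p6, is shown because it marks one of the loci whose contacts with chromosome 7 were read. It runs 5′ to 3′ over 250 bases before and 50 bases after the start of the gene, and capitals mark the bases from the start on.
Cdca3: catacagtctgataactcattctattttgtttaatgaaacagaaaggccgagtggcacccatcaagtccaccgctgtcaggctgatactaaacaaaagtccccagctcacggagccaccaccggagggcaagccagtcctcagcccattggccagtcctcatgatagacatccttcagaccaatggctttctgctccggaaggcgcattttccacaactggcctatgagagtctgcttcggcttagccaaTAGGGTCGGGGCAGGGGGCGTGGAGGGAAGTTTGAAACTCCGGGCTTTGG
The motif AAGCTT of HindIII, the enzyme of the first cut, was absent from both strands of this window, and 7.45% of the 32851 promoters of the same length held it. The motif CATG of NlaIII, the enzyme of the second cut, occurred at 1 position, starting 91 bases before the start of the gene, and 61.1% of those promoters held it. Both motifs read the same on either strand.

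Chromosome 7 took the largest share of the trans sites of the Pole promoter. In Rb1+/+ libraries 1 to 4 its share was 10.7%, 10.1%, 7.26% and 7.69% of trans sites, and in Rb1L/L libraries 1 to 4 it was 11.6%, 10.8%, 9.01% and 9.41%. The mean over both genotypes was 9.57% ± 1.53 (SD, n = 8), and chromosome 7 ranked 1 of 19 trans chromosomes in 5 of the 8 libraries and 2 or 3 in the others. At the Cdca3 promoter the share was 8.28%, 7.80%, 6.87% and 7.06% in Rb1+/+ libraries and 8.32%, 6.87%, 6.59% and 6.81% in Rb1L/L libraries, with a mean of 7.32% ± 0.700 (SD, n = 8). There chromosome 7 ranked from 2 to 5. The Pole share exceeded the Cdca3 share of the same culture in 8 of 8 cultures, although the ranges of the viewpoints overlapped between 7.26% and 8.32%. Per 10 Mb of the chromosome, the mean share was 0.632% of trans sites at Pole, the highest of the 19, and 0.483% at Cdca3, rank 3 of 19.

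Within a viewpoint, libraries with fewer trans sites tended to have a higher share of chromosome 7. Pole libraries listed 2616 to 8899 trans sites and Cdca3 libraries 10537 to 30028, and at each viewpoint the library with the fewest trans sites had the highest share. Over the 8 Cdca3 libraries the Pearson correlation of share and number was -0.824 and Spearman's rho was -0.833, and r was -0.876 without the Rb1L/L libraries 2 and 3. Over the 8 Pole libraries r was -0.680 and rho -0.619, and r was -0.362 without both libraries numbered 1. The libraries left out had the most trans sites at Cdca3 but the fewest at Pole. These removals are unlike, so they do not show that the relation was firmer at one viewpoint. Such correlations were common among chromosomes: for the 18 other trans chromosomes r ranged from -0.941 to 0.920 at Pole, 4 of them below chromosome 7, and from -0.850 to 0.785 at Cdca3, 1 of them below it. They are given as description, since the chromosome was chosen on its share. The same cultures gave both sets of libraries, and the part that yield plays in the difference between viewpoints was not tested. Read numbers are not part of the deposited lists; depth is therefore unknown and no counting interval can be given for a share.

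**Figure D1:**
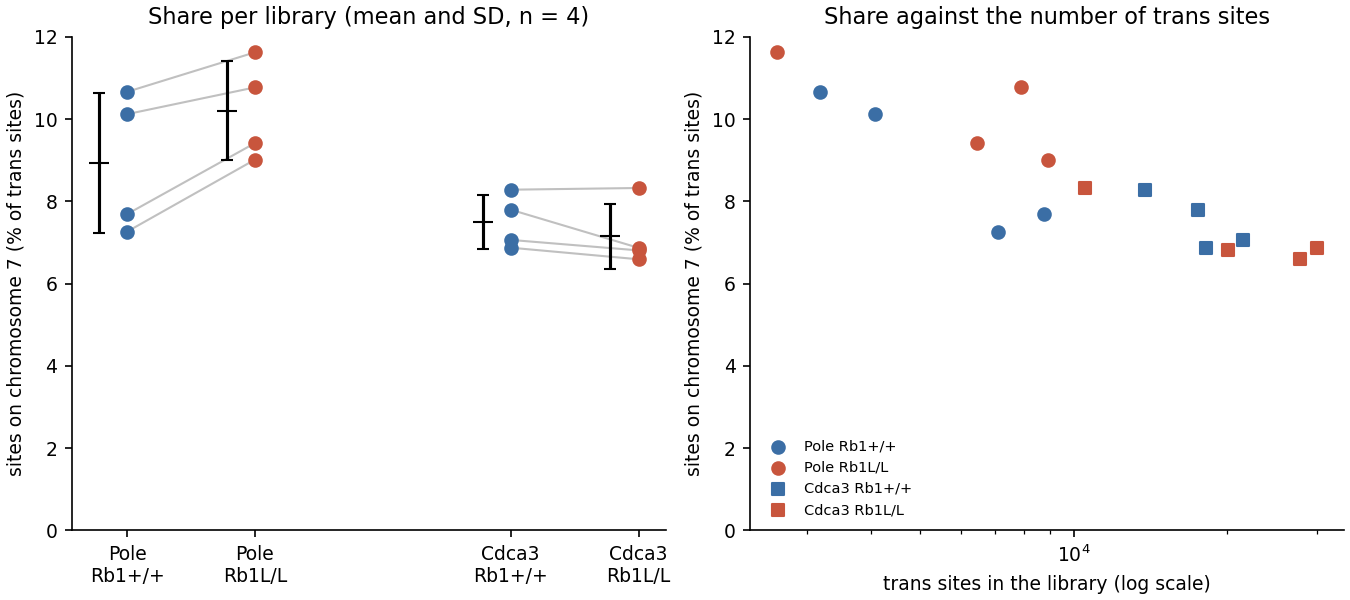
The left plot shows the percent of trans sites on chromosome 7 in each library by viewpoint and genotype, with grey lines joining Rb1+/+ and Rb1L/L libraries of the same number and black marks for the mean and SD of 4 libraries. The right plot shows the same percent against the number of trans sites in the library on a log scale, where the highest share, 11.6%, belongs to the library with 2616 trans sites.

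The listed sites were not spread along chromosome 7 but lay in blocks. Each of them lay inside a called region of its library, and the part of the region call in this clustering was not tested. The chromosome was divided into 500-kb windows, 304 up to the last listed site, and the sites in a window were counted per 1000 trans sites of the library. A site was listed by at least 1 of the 16 libraries in 146 windows, and 158 windows (52.0%) had none in any library. All 16 libraries listed a site in 7 windows, of which 5 were consecutive, from 133 to 135.5 Mb. The other 2 began at 117.5 and at 151 Mb.

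A block was defined as a run of windows with a site in at least 6 of the 8 libraries of a viewpoint. Pole had 10 blocks covering 31 windows (15.5 Mb, 10.2% of the windows), with lengths of 0.5 to 3 Mb. Cdca3 had 11 blocks covering 70 windows (35 Mb, 23.0% of the windows), with lengths of 1 to 5.5 Mb. With all 8 libraries required, 8 windows remained at Pole and 41 at Cdca3. The 8 Pole windows were 44.4% of the 18 windows that met this in the whole trans genome of Pole, while chromosome 7 made up 6.20% of its trans windows. The 41 Cdca3 windows were 10.3% of 398. Under the block rule of 6 of 8 libraries the shares were lower. The 31 Pole windows were 13.4% of 231, and the 70 Cdca3 windows were 7.38% of 948.

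**Figure D2:**
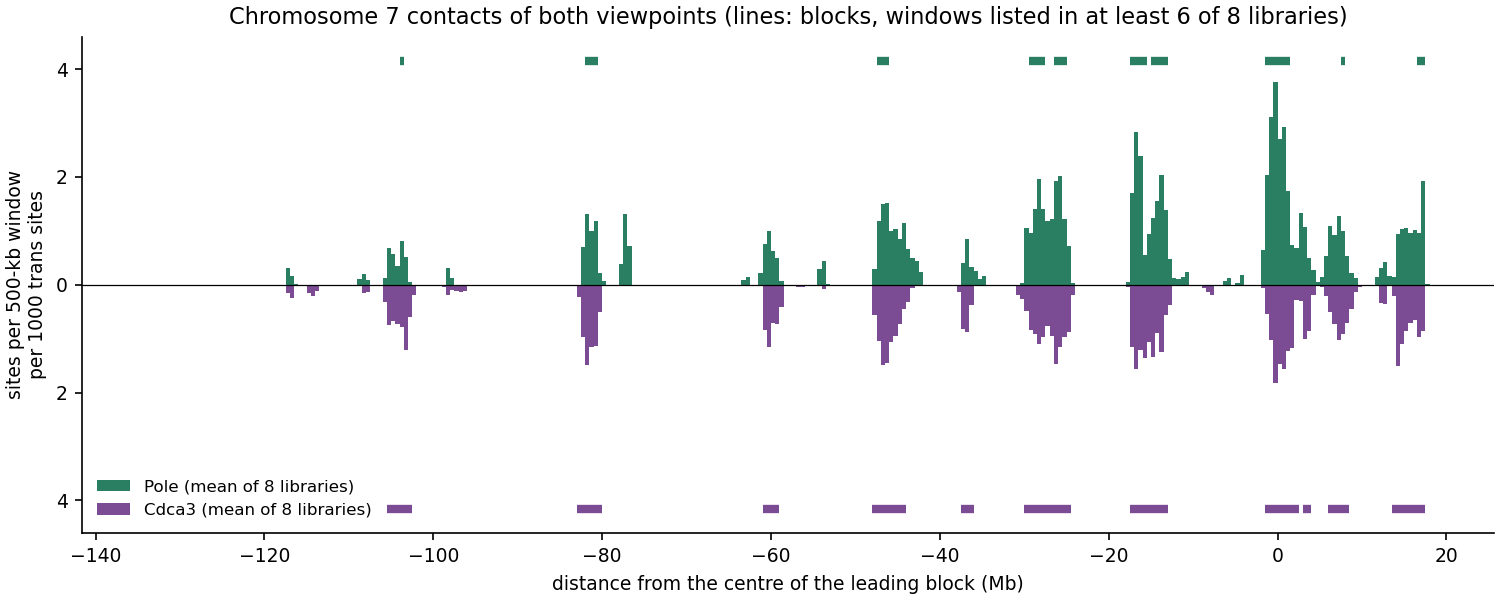
Mean number of sites per 500-kb window per 1000 trans sites along chromosome 7, with Pole upward and Cdca3 downward (8 libraries each), by distance in Mb from the centre of the leading Pole block. The horizontal lines mark the 10 Pole blocks and the 11 Cdca3 blocks; each Pole block lies over a Cdca3 block, the tallest Pole window reaches 3.76, and a Pole peak without a Cdca3 block, starting at 56.5 Mb on the chromosome, comes from both libraries numbered 1.

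The leading Pole block ran from 132.5 to 135.5 Mb, and each of its 6 windows held a site in 8 of 8 Pole libraries. It took 2.74%, 1.65%, 1.10% and 0.802% of the trans sites in Rb1+/+ libraries 1 to 4 and 3.90%, 1.22%, 0.944% and 0.680% in Rb1L/L libraries 1 to 4. The mean was 1.63% ± 1.13 (SD, n = 8), or 16.2% ± 8.96 of the sites on the chromosome. Both libraries numbered 1, which had the fewest trans sites, were the highest of their genotype, and both numbered 4 were the lowest, so the genotypes overlapped almost completely. The same 3 Mb took 0.646% to 0.871% of the trans sites at Cdca3 (median 0.745%), with a mean of 0.764% ± 0.0804 (SD, n = 8). In 7 of 8 cultures the Pole share of this stretch was the higher of the pair.

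Within the leading block the highest Pole window was that from 133.5 to 134 Mb, with 0.916 to 9.56 sites per 1000 trans sites (median 2.45). The mean and the median of the Cdca3 libraries also peaked there, though not each library did, with a range of 1.29 to 2.47 (median 1.78). The window from 134.5 to 135 Mb held 1.26 to 6.88 sites per 1000 at Pole and 0.999 to 1.99 at Cdca3. At the left edge, from 132.5 to 133 Mb, Pole libraries held 0.380 to 5.73 and Cdca3 libraries 0 to 1.04, with 1 Cdca3 library listing no site. At the right edge, from 135 to 135.5 Mb, the ranges were narrow at both viewpoints, 1.12 to 2.83 at Pole and 1.04 to 1.38 at Cdca3. The block at Cdca3 was longer, running on to 136.5 Mb.

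The next 4 Pole blocks by share all lay before the leading one on the chromosome. The block from 116.5 to 118.5 Mb took 0.747% ± 0.501 of trans sites (SD, n = 8), with a range of 0.206% to 1.80%, and was listed in 8 of 8 libraries. Its neighbour from 119 to 121 Mb took 0.620% ± 0.474 and was absent from Rb1L/L library 1 alone. The blocks from 104.5 to 106.5 Mb and from 107.5 to 109 Mb took 0.573% ± 0.457 and 0.515% ± 0.518. Libraries differed widely in both: Rb1+/+ library 1 placed 1.45% and 1.64% of its trans sites in them, Rb1L/L library 1 listed none in either, and Rb1+/+ library 2 listed 0.0246% in each. The blocks from 86.5 to 88 Mb (0.418% ± 0.271), 52 to 53.5 Mb (0.348% ± 0.286) and 150.5 to 151.5 Mb (0.288% ± 0.167) completed the 8 largest. The first and last of these were listed in 8 of 8 libraries, and that from 52 to 53.5 Mb was absent from both libraries numbered 1. The remaining Pole blocks were 1 window each, from 30 to 30.5 Mb and from 141.5 to 142 Mb.

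The Cdca3 blocks were longer and more even. The largest, from 104 to 109.5 Mb, took 1.05% ± 0.0968 of trans sites (SD, n = 8) with a range of 0.953% to 1.25%. At Pole the same stretch ranged from 0 to 4.31%. The block from 116.5 to 121 Mb took 1.04% ± 0.197 at Cdca3, and 8 of its 9 windows were listed in 8 of 8 libraries. The block from 132.5 to 136.5 Mb took 0.910% ± 0.0780 at Cdca3 and 1.77% ± 1.23 at Pole. The blocks from 86 to 90 Mb, 147.5 to 151.5 Mb, 51 to 54 Mb, 28.5 to 31.5 Mb and 140 to 142.5 Mb followed with 0.771% ± 0.127, 0.685% ± 0.153, 0.547% ± 0.149, 0.473% ± 0.183 and 0.387% ± 0.172. In each of the 11 Cdca3 blocks the coefficient of variation over 8 libraries was larger at Pole (41.4% to 172%) than at Cdca3 (8.57% to 77.7%), and Pole libraries also listed fewer sites. These blocks were defined by recurrence at Cdca3, which favours a lower spread there. In each of the 10 Pole blocks, defined at Pole, the coefficient was also larger at Pole (58.2% to 101%) than at Cdca3 (10.5% to 71.2%).

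**Figure D3:**
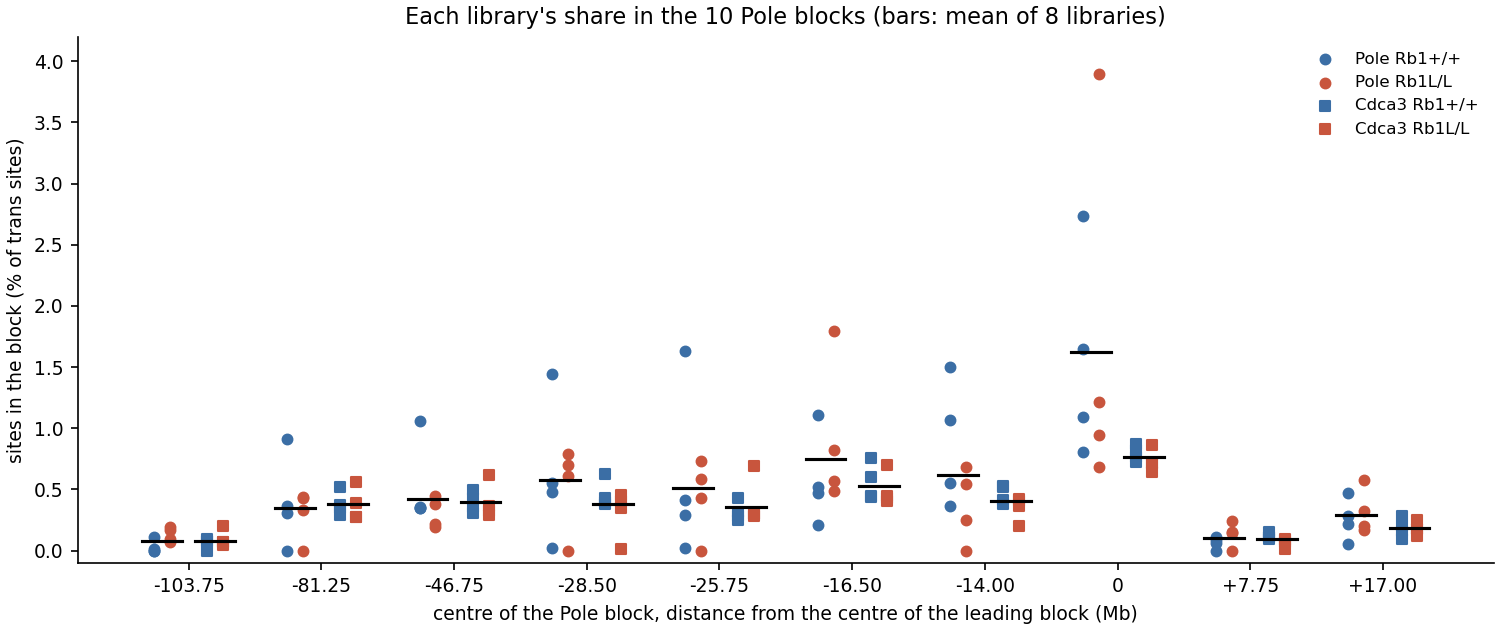
Percent of trans sites in each of the 10 Pole blocks, placed by the distance of their centre from that of the leading block in Mb. Circles are Pole libraries, squares are Cdca3 libraries, colours are genotypes and black bars are means of 8 libraries; the leading block spans 0.680% to 3.90% at Pole and 0.646% to 0.871% at Cdca3.

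Long stretches between the blocks had no listed site in any library. The first listed site of the chromosome began at 16558619 (mm9), so 33 windows at its start (16.5 Mb) were empty, and the last site ended at 151508778. Between them, 20 runs of empty windows covered 62.5 Mb, and the 5 longest covered 40 Mb. The longest ran from 38 to 51 Mb and from 57.5 to 70.5 Mb, 13 Mb each, and were followed by those from 110 to 116 Mb (6 Mb), from 21 to 25 Mb and from 92 to 96 Mb (4 Mb each). Measured between neighbouring sites, the gap that holds 57.5 to 70.5 Mb was 13.6 Mb long and the one that holds 38 to 51 Mb was 13.2 Mb. Blocks followed each other at a median spacing of 8.5 Mb at Pole and 6.75 Mb at Cdca3, with spacings of 0.5 to 33 Mb and 0.5 to 19.5 Mb. How many restriction sites of each gap could be read in the sequencing is not in the files used here, and its part in the gaps was not tested. The lists hold no site outside called regions, so a gap does not show that no contact was read there.

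**Figure D4:**
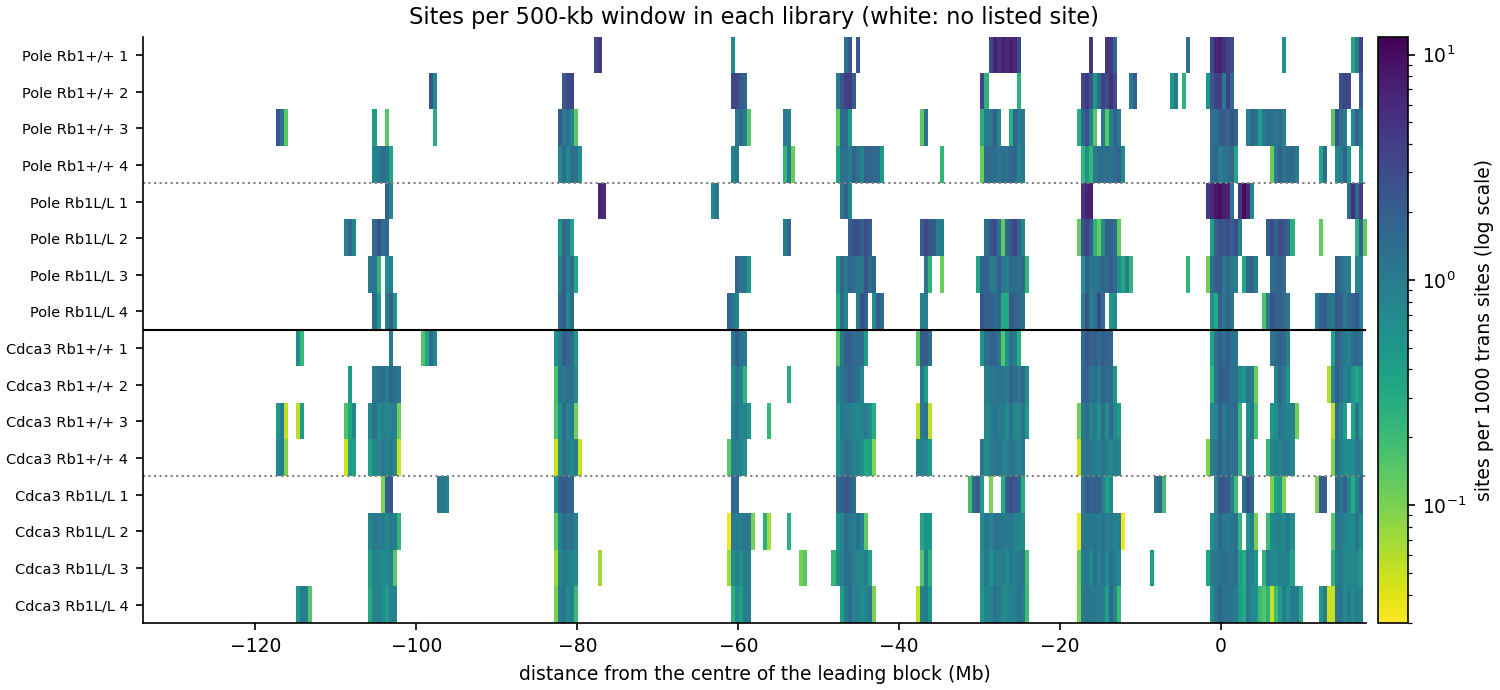
Sites per 500-kb window per 1000 trans sites on a log colour scale in each of the 16 libraries, by distance in Mb from the centre of the leading block; white windows have no listed site. Vertical bands at the same distances run through both viewpoints and genotypes, and the Pole libraries numbered 1, with 27 and 29 contacted windows, show the fewest bands.

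Windows listed in most Pole libraries were also listed in most Cdca3 libraries. All 31 windows listed in at least 6 of 8 Pole libraries were also listed in at least 6 of 8 Cdca3 libraries, and 39 further windows met this at Cdca3 alone. On the other chromosomes 181 of 183 such Pole windows (98.9%) met it at Cdca3 too, so this full inclusion was near that of the rest of the genome. Each Pole block overlapped a Cdca3 block, and 8 of the 11 Cdca3 blocks overlapped a Pole block. The exceptions, from 73 to 75 Mb, 96.5 to 98 Mb and 137 to 138 Mb, were listed in 6, 4 and 3 of the 8 Pole libraries. The Cdca3 blocks, 23.0% of the windows, held 85.8% ± 5.61 of the chromosome 7 sites of a Pole library (SD, n = 8, range 75.3% to 91.7%). On the 17 other chromosomes that were trans to both viewpoints, this value had a median of 75.8% and a range of 47.4% to 89.2%. The Cdca3 blocks covered 10.8% (chromosome X) to 29.6% (chromosome 11) of the windows there. As a multiple of the share of windows covered, the value was 3.73 on chromosome 7. On the others it ran from 2.73 (chromosome 19) to 4.85 (chromosome 18), so chromosome 7 lay inside their range. In the other direction, the Pole blocks, 10.2% of the windows, held 48.4% ± 2.60 of the chromosome 7 sites of a Cdca3 library.

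Across the 304 windows, mean sites per 1000 at Pole and at Cdca3 had a Pearson correlation of 0.863, the second highest of 18 chromosomes, whose other members ranged from 0.627 to 0.879 (median 0.793). Over the 146 windows with any site it was 0.800. Windows are neighbours in 1 genome, each site was listed inside a called region of its library, and the viewpoints share cultures, so these correlations are descriptions. Of the 146 contacted windows, 44 (30.1%) were listed at 1 viewpoint alone, most of them in few libraries. Pole libraries listed sites in 19 windows where no Cdca3 library did, each in at most 3 libraries, as from 79.5 to 80 Mb and from 99 to 99.5 Mb. The reverse held for 25 windows, 22 of them listed in at most 3 libraries, while that from 51 to 51.5 Mb was listed by 8 of 8 Cdca3 libraries and by no Pole library. It lies at the left edge of the Cdca3 block from 51 to 54 Mb. These examples were chosen after their values were seen.

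No chromosome 7 window passed the test for a difference between viewpoints. Windows holding 16 or more sites in all 16 libraries together were compared with limma on log2 of sites per 1000 trans sites plus 0.2, with genotype as a covariate and with chromosomes 5 and 6 left out. Of 1573 windows tested genome-wide, 6 were lower at Pole (0.381%) and 0 were higher at Pole (0%) at an adjusted p under 0.05. The minimum of 16 sites was summed over both viewpoints, and Cdca3 libraries listed more trans sites (159540 against 48978). Windows could therefore pass more readily through Cdca3. The part of this filter and of yield in the direction of differences, here and in the next paragraph, was not tested. Chromosome 7 contributed 104 tested windows of the 146 contacted, of which 0 were called, 8 had an unadjusted p under 0.05 and the lowest adjusted p (limma) was 0.183. On this scale the median difference, Pole minus Cdca3, was -0.31 for the chromosome 7 windows and -0.51 for all windows, and 7.69% of the chromosome 7 windows against 19.7% of all had an unadjusted p under 0.05. The counts changed with the setting: 2 windows, those starting at 79.5 Mb and 91 Mb, were called higher at Pole when 0.5 was added to the sites of a window before scaling. That setting gives an empty window a higher value in a library with fewer trans sites, and Pole libraries had fewer. The windows were listed in 3 and 2 of 8 Pole libraries and in 0 of 8 Cdca3 libraries. With sites of a deposited value under 0.01 alone, 2 others, from 30.5 to 31 Mb and from 118 to 118.5 Mb, were called lower at Pole.

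The windows with the smallest p in each direction are given per 1000 trans sites outside chromosomes 5 and 6, the denominator of this comparison, as mean ± SD of 8 libraries. They were chosen after their values were seen. Of the 8 windows with an unadjusted p under 0.05, 6 were lower at Pole. The first, from 31 to 31.5 Mb, had 0.0621 ± 0.176 at Pole, where 1 of 8 libraries listed it, and 0.642 ± 0.518 at Cdca3, where 6 of 8 did, a log2 difference of -1.48 with SE 0.59 (limma, adjusted p = 0.183). Its neighbour from 30.5 to 31 Mb had 0.557 ± 0.812 at Pole, listed in 4 of 8 libraries, and 1.30 ± 0.544 at Cdca3, listed in 8 of 8 (log2 difference -1.59, SE 0.66, limma adjusted p = 0.199). The window from 148 to 148.5 Mb was likewise listed in 4 and 8 libraries, with 1.01 ± 1.24 and 1.63 ± 0.475 (log2 difference -1.48, SE 0.64, limma adjusted p = 0.209). The other 2 windows of the 8 were higher at Pole. That from 132.5 to 133 Mb, in the leading block, had 2.17 ± 1.82 at Pole and 0.582 ± 0.362 at Cdca3, a log2 difference of 1.44 with SE 0.62 (limma, adjusted p = 0.209). That from 56.5 to 57 Mb had 1.38 ± 2.59 at Pole and 0.00964 ± 0.0273 at Cdca3 (log2 difference 1.15, SE 0.52, limma adjusted p = 0.222). Its Pole mean came from both libraries numbered 1, with 4.62 in Rb1+/+ and 6.40 in Rb1L/L, while the other 6 Pole libraries listed no site there. For most windows the data could not resolve small differences, since the 95% interval of the log2 difference had a median half-width of 1.19.

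Single sites seldom recurred between libraries. A window takes in many sites and blocks were defined by recurrence, so the values for windows and sites are set side by side as description only. Sites whose starts lay within 10 bp of each other were taken as 1 site, which gave 7999 distinct sites on chromosome 7. Of these, 47.9% were listed in 1 library and 0.238% (19 sites) in at least 8 of 16, whereas 47.9% of the contacted windows (70 of 146) were listed in at least 8. The most recurrent site, at 53167330 to 53167335, was listed in 11 libraries, 4 of Pole and 7 of Cdca3. No site was listed in 12 or more. The next, at 133373451 to 133373457 and at 135054915 to 135054920, were listed in 9 libraries and lie in the leading block. Of the distinct sites of Pole, 62.8% were also listed at Cdca3, and of those of Cdca3, 32.8% were also listed at Pole.

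Pairs of libraries were compared in the same units. The Jaccard index, the share of items listed in both libraries of those listed in either, averaged 39.6% ± 14.9 (SD over 28 pairs) for windows within Pole, 68.3% ± 11.8 within Cdca3 and 49.1% ± 15.7 over the 64 pairs of a Pole and a Cdca3 library. For single sites it averaged 4.04%, 9.64% and 4.69%. A Pole library shared more windows with a Cdca3 library, on average, than with another Pole library, and Cdca3 libraries listed more windows (63 to 92) than Pole libraries (27 to 76). The window index of the 8 pairs from the same culture was 53.0% ± 16.0, against 48.4% ± 15.5 over the 48 pairs from different pair numbers. On the other chromosomes the window index averaged 26.4% within Pole, 56.9% within Cdca3 and 34.7% between viewpoints. The pairs share libraries, so no test was made of these averages.

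**Figure D5:**
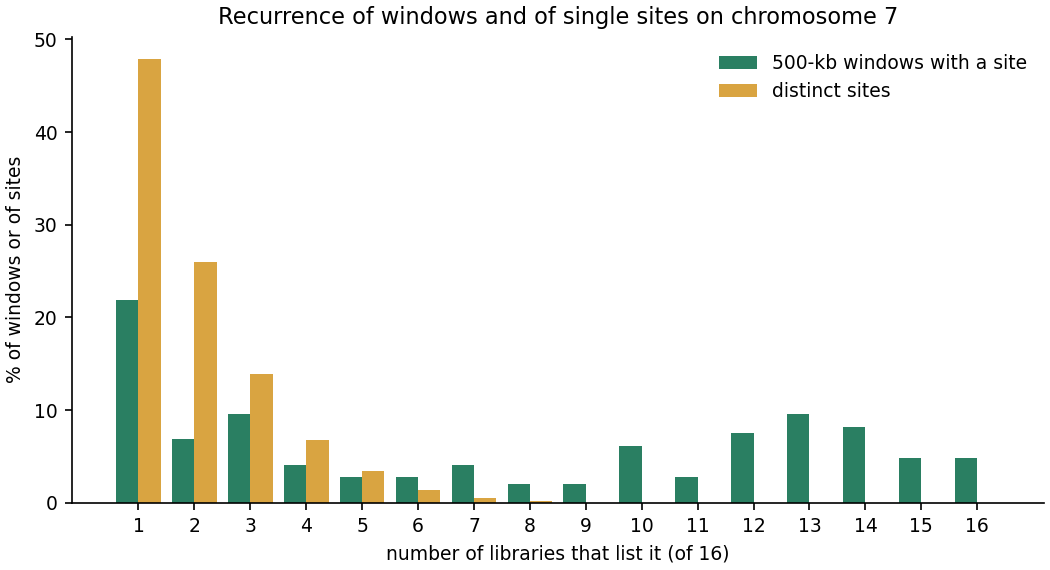
Percent of the 146 contacted 500-kb windows (green) and of the 7999 distinct sites (yellow) by the number of libraries, of 16, that list them. Sites fall from 47.9% in 1 library to none in 12 or more, while windows have a second rise between 10 and 16 libraries.

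The regions that the authors called covered more of the chromosome, on average, than the blocks. Each listed chromosome 7 site lay inside a called region of its library, and 49.6% of neighbouring listed sites carried equal deposited values, so sites of a block are not independent readings. A Pole library had 10.5 ± 1.60 regions on chromosome 7, covering 42.1 ± 11.6 Mb (SD, n = 8), and a Cdca3 library had 12 ± 1.07 covering 54.3 ± 4.51 Mb. Regions of all 16 libraries overlapped over 10.1 Mb in 4 stretches of mm9. These were chr7:86578728-88508022, chr7:116709895-118639971, chr7:132349572-136128047 and chr7:150006471-152450598. All 8 Pole libraries shared 10.3 Mb and all 8 Cdca3 libraries 34.3 Mb in 10 stretches. Of the chromosome 7 sites, 63.1% ± 10.7 had a deposited value under 0.01 in a Pole library and 82.9% ± 11.9 in a Cdca3 library, (SD, n = 8 each), against means of 49.7% and 76.0% of the other trans sites.

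The genotypes did not differ detectably in their share of contacts on chromosome 7 at either viewpoint. The Pole mean was 8.93% ± 1.71 (SD, n = 4) for Rb1+/+ and 10.2% ± 1.21 (SD, n = 4) for Rb1L/L. The difference of 1.27 points had a 95% interval of -1.65 to 4.36 (exact two-sided permutation p = 0.257, adjusted over 19 chromosomes 0.984). The Rb1L/L library was the higher in 4 of 4 pairs, by 0.651 to 1.75 points. In pairs 2 and 3 it also had more trans sites than its Rb1+/+ partner (7893 against 4072 and 8899 against 7120), and in pairs 1 and 4 fewer (2616 against 3180 and 6469 against 8729). The Cdca3 mean was 7.50% ± 0.655 for Rb1+/+ and 7.15% ± 0.793 for Rb1L/L, a difference of -0.36 points with an interval of -1.69 to 1.45 (exact two-sided permutation p = 0.486, adjusted 0.839), and Rb1L/L was the higher in 1 of 4 pairs. Over the 19 trans chromosomes of each viewpoint, 0% had an adjusted p under 0.05 at Pole and 0% at Cdca3, with 0 and 3 chromosomes at an unadjusted p under 0.05. Counted in base pairs of called regions in place of sites, the Pole difference turned to -0.05 points.

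Read as Pole share minus Cdca3 share of the same culture, chromosome 7 differed between the genotypes before correction only. The Rb1+/+ cultures 1 to 4 had differences of 2.38, 2.32, 0.390 and 0.626 points (mean 1.43 ± 1.07, SD), and the Rb1L/L cultures had 3.30, 3.90, 2.42 and 2.61 (mean 3.06 ± 0.677). Each Rb1L/L culture lay above each Rb1+/+ culture. The difference of 1.63 points had a 95% interval of 0.0437 to 3.51 and an exact two-sided permutation p of 0.0286, the smallest that 70 assignments can give. Among the 18 chromosomes that were trans to both viewpoints, chromosome 7 was the 1 (5.56%) with an unadjusted p under 0.05, and adjusted over the 18 its p was 0.411. By absolute size its difference had rank 2. It came after chromosome 11 (2.10 points, exact permutation p = 0.0857) and before chromosome 4, which went the other way (-1.55 points). With sites of a deposited value under 0.01 alone the difference was 4.11 points (exact permutation p = 0.143), and with the replicate block the p was 0.125 (exact sign-flip permutation), the smallest that 4 pairs can give.

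No chromosome 7 window or block was called between the genotypes. At Pole, limma called 0 of 1346 trans windows with at least 8 sites over 8 libraries (0%), among them 99 of the 121 contacted windows of chromosome 7. None of those 99 had an unadjusted p under 0.05, and their lowest adjusted p was 0.92. At Cdca3, limma called 0 of 1732 windows (0%). There 107 of the 127 contacted windows of chromosome 7 were tested, 3 had an unadjusted p under 0.05 (2.80%, against 4.97% of all windows), and the lowest adjusted p was 0.756. Of the blocks, limma called 0 of 96 at Pole (0%) and 0 of 187 at Cdca3 (0%), of which 10 and 11 were on chromosome 7. The median log2 difference of the chromosome 7 windows, Rb1L/L minus Rb1+/+, was 0.25 at Pole and -0.05 at Cdca3, against 0.05 and 0.00 over all windows. The intervals were wide: the 95% interval of a chromosome 7 window had a median half-width of 2.28 at Pole and 1.09 at Cdca3, so changes of several fold could not be resolved in most Pole windows.

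Most of the windows with the smallest p at Pole adjoined another of them. Those from 136 to 136.5 Mb and from 136.5 to 137 Mb were listed in no Rb1+/+ library and in 2 of 4 Rb1L/L libraries each. In the second of them Rb1L/L library 1 held 10.3 sites per 1000 trans sites and library 3 held 0.337, so the mean of 2.66 rested on 1 library. Between 117 and 117.5 Mb lay 0, 4.91, 2.67 and 0.573 sites per 1000 in Rb1+/+ libraries 1 to 4 and 6.50, 3.55, 1.91 and 2.63 in Rb1L/L libraries (log2 difference 1.51, SE 0.94, limma adjusted p = 0.92), with overlapping groups. In the other direction, 3 adjoining windows from 119.5 to 121 Mb had log2 differences of -1.37 to -1.50 (limma adjusted p = 0.92 each). The block that holds them, from 119 to 121 Mb, took 10.7, 15.0, 3.65 and 5.50 sites per 1000 in Rb1+/+ libraries and 0, 5.45, 6.85 and 2.47 in Rb1L/L libraries, a log2 difference of -1.85 with SE 1.15 (limma adjusted p = 0.74). Rb1L/L library 1 listed none of its windows, and the groups overlapped. The block from 86.5 to 88 Mb had a log2 difference of -0.64 (SE 1.17). The blocks higher in Rb1L/L with the smallest p were those from 30 to 30.5 Mb (log2 difference 1.93, SE 1.05, limma adjusted p = 0.74) and from 116.5 to 118.5 Mb (0.69, SE 0.90).

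At Cdca3 the smallest p belonged to the window from 96.5 to 97 Mb, in a block listed in 6 or 7 of 8 Cdca3 libraries per window. Its values were 2.03, 1.20, 1.10 and 0.931 sites per 1000 trans sites for Rb1+/+ libraries 1 to 4 and 0, 0.333, 0.144 and 0.795 in Rb1L/L libraries. The log2 difference was -1.74 with SE 0.68 (limma, adjusted p = 0.756), beside 0% of all windows called. The groups did not overlap in this window, but it was picked for its smallest p. The share of all windows without overlap was not counted. The window from 148 to 148.5 Mb, in the block at the end of the chromosome, held 2.03, 2.16, 1.54 and 1.49 in Rb1+/+ and 1.61, 1.13, 0.897 and 1.19 in Rb1L/L libraries, with overlap and a log2 difference of -0.52 (SE 0.24, limma adjusted p = 0.756). The window from 141 to 141.5 Mb had a difference of -0.89 (SE 0.46). Its block, from 140 to 142.5 Mb, took 6.88, 3.99, 4.13 and 4.70 sites per 1000 in Rb1+/+ and 1.04, 4.10, 3.95 and 2.19 in Rb1L/L libraries, a log2 difference of -0.89 with SE 0.42 (limma adjusted p = 0.581), and the groups overlapped. The block from 96.5 to 98 Mb had a difference of -1.45 (SE 0.85). Higher in Rb1L/L by the same rule were a stretch of 2 windows from 146 to 147 Mb, listed in no Rb1+/+ and in 2 of 4 Rb1L/L libraries, and the window starting at 137 Mb (log2 difference 0.96, SE 0.55). Among blocks they were those from 137 to 138 Mb (1.09, SE 0.87) and from 28.5 to 31.5 Mb. In the latter the log2 difference was 0.19 (SE 0.48), while the means on the linear scale ran the other way, 4.63 ± 0.775 sites per 1000 in Rb1L/L and 4.82 ± 2.68 in Rb1+/+ libraries, and without Rb1+/+ library 1 the log2 difference turned to -0.37.

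Libraries of a genotype did not share detectably more chromosome 7 windows with each other than with the other genotype. At Pole the Jaccard index of contacted windows averaged 37.2% for the 12 pairs of like genotype and 41.4% for the 16 pairs of unlike genotype. Within minus between came to -4.15 points (exact one-sided permutation p = 1 over 35 divisions of the libraries). No division gave a lower value, and the test looked only for more sharing within a genotype. Libraries of the same number are always of unlike genotype, and the test did not take the numbers into account. At Pole such pairs averaged 46.2%, against 38.5% for pairs of different numbers. At Cdca3 the averages were 68.5% and 68.2%, or 0.24 points more within a genotype (exact one-sided permutation p = 0.371), and its sign turned when windows of 250 kb or windows with at least 3 sites were compared, and without Rb1+/+ library 1, 3 or 4 (-0.94, -1.41 and -0.87). The mean window profiles of the genotypes had Pearson correlations of 0.761 at Pole and 0.912 at Cdca3 over 304 windows, and the profiles of the viewpoints within a genotype had correlations of 0.808 in Rb1+/+ and 0.778 in Rb1L/L cells. These are descriptions over windows that neighbour each other.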

How the data were processed

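Each of the 16 libraries had a list of sites and a list of called regions, analysed as deposited. The site lists hold positions in mm9 (per the submitters' processing notes) and 1 value per site, all under 0.05; the authors deposited no header, so whether these are p-values or q-values could not be settled. The deposited region lists hold coordinates alone. The sources used here name no aligner or caller. Sites outside chromosome 5 (Pole) or chromosome 6 (Cdca3) were counted as trans with Python 3.11.15, pandas 2.3.3 and numpy 2.4.6. Counts per 500-kb window per 1000 trans sites, plus 0.2, were compared on a log2 scale by limma 3.58.1 under R 4.3.3. The fits used trended eBayes, with Benjamini-Hochberg over all trans windows or blocks. The genotype fit was tried on data simulated from the Cdca3 libraries, with large changes and windows drawn independently. That trial did not cover the Pole libraries, the blocks or the viewpoint comparison. Exact permutation tests used 70 assignments of 8 libraries (smallest p 0.0286), and 95% intervals came from inverting them.

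The chromosome, the blocks and the lists were chosen with earlier results of these data known. Named windows and blocks are the 8 largest blocks per viewpoint, the 5 longest gaps, and per viewpoint and direction the 3 windows and 2 blocks with the smallest p between genotypes. The labels do not say what the members of a pair share, so p-values measure the spread between these libraries. Pairing by number was treated as an alternative. Other alternatives were the added value, the filter on sites, window size, block rule, denominator, a deposited value under 0.01, called regions, and leaving out each library.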

Additional observations from a re-analysis of the deposited data

Results flagged for a closer look

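In groups of 4 libraries, 3 of the 44 groups of values examined on chromosome 7 had a library far from the other members (by the ratio of its gap to the range), and chance gives about 1 in 20. The Cdca3 Rb1L/L library 1 had 8.32% of its trans sites on chromosome 7, against 6.59% to 6.87% in the other libraries of its group, and it had the fewest trans sites of them. The Pole Rb1L/L library 1 placed 3.90% of its trans sites in the leading block from 132.5 to 135.5 Mb, against 0.680% to 1.22% in the rest of its group, and it too had the fewest trans sites. The Pole Rb1+/+ library 2 placed 1.06% in the block from 86.5 to 88 Mb, against 0.346% to 0.355%. The genotype effect on the chromosome 7 share differed between the viewpoints by 1.63 points (exact permutation p = 0.0286, or 0.411 adjusted over 18 chromosomes), with each Rb1L/L culture above each Rb1+/+ culture. The difference on chromosome 11 was larger (2.10 points).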

How the results depend on the processing

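Of the alternative settings of the comparisons, 125 kept the result and 14 did not. For the share, the difference between viewpoints and the agreement, keeping meant the same direction and side of the threshold. For the limma comparisons it meant the same number of called chromosome 7 windows or blocks, with no check of direction. Named windows and blocks kept direction and side of the threshold in 397 settings and did not in 2. The Pole difference in the share turned to -0.053 points in base pairs of called regions. The difference between viewpoints in the genotype effect kept its direction but lost its call with sites of a deposited value under 0.01 (4.11 points), with the replicate block (1.63 points, exact sign-flip permutation p = 0.125, the smallest 4 pairs can give) and on leaving out each number in turn (1.49 to 1.86 points, where 3 against 3 cannot go below 0.1). Within minus between genotypes, the Cdca3 agreement turned to -0.063 points with at least 3 sites per window and to -0.29 with 250-kb windows, and ranged from -1.41 to 2.24 on leaving out each library. The windows called by viewpoint rose from 0 to 2 with 0.5 added to the sites and to 2 with a deposited value under 0.01. The first of these settings gives empty windows a higher value in libraries with fewer trans sites. The cause was not tested for any of these. The Cdca3 block from 28.5 to 31.5 Mb ranged from -0.37 to 0.49 on leaving out each library. The window from 30.5 to 31 Mb was called by viewpoint with a deposited value under 0.01 (-2.54). Restricting the viewpoint comparison to libraries with at least 5000 trans sites, chosen after seeing the data, also gave 0 calls. The numbers of the libraries did not meet the rule for pairing across genotypes: deviations of same-numbered libraries correlated at -0.05 to 0.12 at Pole and 0.03 to 0.13 at Cdca3, above 0.1 in 1 and 2 of 4 pairs, and each library correlated best with its own number in 1 and 3 of 4. Between viewpoints the 8 same-culture correlations were 0.02 to 0.07, all positive, and 6 of 8 libraries correlated best with their own culture. The block changed no other call. The mean share of the 16 largest blocks, 8 per viewpoint, moved by over 1 SD in 5 of 144 settings, all with a deposited value under 0.01, a check added after seeing the data; the leading Pole block then took 3.22%.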

Other observations

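Some blocks were thin in the same culture at both viewpoints, a pattern noticed after the values were seen and not tested. In the window from 30 to 30.5 Mb, culture 1 of Rb1+/+ listed no site at Pole or at Cdca3, while culture 1 of Rb1L/L had the highest share at both, 0.191% and 0.199% of trans sites. In the block from 104.5 to 106.5 Mb, culture 1 of Rb1L/L listed none at Pole and 0.00949% at Cdca3, where the median was 0.404%. In the window from 141.5 to 142 Mb the same culture listed none at Pole and 0.00949% at Cdca3, where the median was 0.0940%. The block from 107.5 to 109 Mb went the other way, with none at Pole in that culture and 0.693% at Cdca3, the highest of the 8. So did the block from 52 to 53.5 Mb, where neither culture numbered 1 listed a site at Pole. At Cdca3 these cultures had the highest shares of the 8, 0.522% in Rb1+/+ and 0.560% in Rb1L/L. Over all windows of chromosome 7, pairs of libraries from the same culture shared 53.0% ± 16.0 of their contacted windows between viewpoints, which is within the spread of the pairs from different numbers (48.4% ± 15.5).

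Across the 19 trans chromosomes, the share of trans sites per Mb and the number of protein-coding genes per Mb other than olfactory and vomeronasal receptor genes had a Pearson correlation of 0.439 at Pole and 0.779 at Cdca3. By such genes per Mb chromosome 7 had rank 3, and by their number (1613) rank 1. This is a description over chromosomes of 1 genome, with gene numbers from GRCm38.p6 and sites from mm9.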
